A study of Mus musculus with 4 samples.

Results

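The MLL (mixed-lineage leukemia), DOT1L, super elongation and Polycomb chromatin complexes were described in leukemic granulocyte-macrophage progenitors (L-GMPs) by RNA sequencing. The members are 46 genes listed by name, of which 45 were matched to 1 of the 45232 gene identifiers in the count files. The methyltransferase gene Prmt1 was not matched and was not analysed here. All 45 matched genes passed the filter on low counts, which left 15591 genes to test. They comprised 8 genes of the MLL-menin complexes, 5 of the DOT1L complex, 8 of the super elongation complex, 12 of Polycomb repressive complex 1 (PRC1), 7 of Polycomb repressive complex 2 (PRC2), 2 ASXL genes and 3 demethylase genes.

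The cells came from secondary recipient mice with leukemia driven by MLL-AF9, and all 4 libraries share this driver. The group labelled Scr and the group labelled miR-99 KD held 2 mice each, with 1 library per mouse. The labels do not spell out Scr or KD, and the age and strain of the mice, the vectors and the number of primary leukemias are not stated. Cells were sorted when the mice died, on c-Kit+, CD34+, CD16/32+ and Sca-1+ staining and on 2 reporters, GFP+ and tdTom+. Nothing shows that the 2 mice of a group received separate leukemias, so p-values measure the spread between these libraries only.

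MLL-AF9 joins the start of the MLL protein, encoded by Kmt2a, to the end of AF9, encoded by Mllt3. The MLL part is held on chromatin by menin (Men1) and LEDGF (Psip1), and the AF9 part recruits DOT1L and the super elongation complex, which releases paused RNA polymerase. Polycomb complexes place repressive marks: PRC2 methylates histone H3 through Ezh2 or Ezh1, and PRC1 ubiquitinates histone H2A through Rnf2 or Ring1. MLL and Polycomb proteins act in opposite directions on the Hoxa genes, and several of these proteins are drug targets in acute myeloid leukemia.

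Values of a pair are given in the order replicate 1, replicate 2. Gene counts per library ranged from 38458519 to 42674407. Scr 1 stood apart, with 28573 genes holding a count against 21372 to 24038 in the other 3 libraries. Olfactory receptor genes, which these cells are not known to use, summed to 51.9 and 5.52 CPM (counts-per-million) in the Scr pair and 4.78 and 15.0 CPM in the miR-99 KD pair. The gate genes Kit, Cd34 and Fcgr3 were present at 234 CPM or more in every library, and Kit was lower in miR-99 KD, at 424 and 437 against 307 and 234 CPM. The 10 progenitor markers that include them summed to 6426 and 5517 CPM in Scr and 9667 and 16052 CPM in miR-99 KD. Of these, 8 had a positive log2 fold change and 2 a negative one, and Mpo had 667 and 519 against 2387 and 4752 CPM. The 10 monocyte and macrophage markers summed to 1944 and 2019 CPM in Scr and 2405 and 3678 CPM in miR-99 KD. Of those, 5 were positive and 5 negative. Mitochondrial genes took 0.650% and 0.637% of counts in the Scr pair and 0.853% and 1.16% in the miR-99 KD pair. The 10 markers of maturing granulocytes summed to 3818 and 1627 CPM in the Scr pair and 7058 and 18713 CPM in the miR-99 KD pair, and all 10 had a positive log2 fold change. Stroma and endothelium markers summed to 568 and 562 CPM in the Scr pair and 363 and 278 CPM in the miR-99 KD pair, nearly all of it Vcam1 and Pecam1. Vcam1 was lower in miR-99 KD, at 445 and 444 against 207 and 138 CPM, and Pecam1 was higher, at 115 in each Scr library against 154 and 136 CPM. The endothelial gene Cdh5 had at most 2 counts. Of the other marker lists, T and NK cell genes summed to 2.99 and 3.18 CPM in the Scr pair and 1.14 and 0.92 CPM in the miR-99 KD pair, mostly Klrb1c and Lck. The T cell gene Cd3e had at most 4 counts and the NK cell gene Ncr1 at most 2 counts in any library. B cell genes summed to 63.1 to 89.6 CPM, nearly all of it Cd79b, while Pax5 had at most 3 counts. The erythroid list summed to 179 and 239 CPM in the Scr pair and 205 and 316 CPM in the miR-99 KD pair, with 4 genes positive and 6 negative, among them Slc4a1 at 5.49 and 17.99 against 0.967 and 2.01 CPM. The part of these marker and mitochondrial differences in the results on the complexes was not tested.

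The microRNAs of the miR-99 family share 1 seed, shown because a seed match in a 3' UTR is the usual way for a microRNA to reach a transcript. The mature sequences are those of RefSeq on GRCm38.p6, written 5' to 3', with the seed (bases 2 to 8) in capitals. They lie on the plus strand at chr9:41531437-41531458 (miR-100-5p), chr16:77598940-77598961 (miR-99a-5p) and chr17:17830194-17830215 (miR-99b-5p).

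miR-100-5p: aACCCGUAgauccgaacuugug

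miR-99a-5p: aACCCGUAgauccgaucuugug

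miR-99b-5p: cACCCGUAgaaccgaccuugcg

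For every gene, the longest 3' UTR in GENCODE M21 was searched on its own strand for TACGGGT or ACGGGTA, which overlap by all but 1 base. A match was found in 2 of the 45 members (4.44%), Ccnt1 on chromosome 15 and Asxl2 on chromosome 12. Of genes tested with a 3' UTR, 291 of 12368 (2.35%) held one. The members' UTRs were longer, with a median of 1824 bases against 1157. The matches, in capitals with 10 bases before and 11 after, start at base 1768 of the 4522 bases of the Ccnt1 UTR and at base 6108 of the 9841 bases of the Asxl2 UTR.

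Ccnt1: acagaagttgTACGGGTgctgcttgcca

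Asxl2: ataaacacttTACGGGTgggtgtgtgtg

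Ccnt1, the cyclin partner of Cdk9, had 72.3 and 75.2 CPM in the Scr pair and 74.2 and 63.1 CPM in the miR-99 KD pair. Asxl2, a Polycomb-associated scaffold, had 72.6 and 71.4 CPM in the Scr pair and 88.8 and 66.7 CPM in the miR-99 KD pair. The groups overlapped for both genes, whose log2 fold changes were −0.10 ± 0.18 (SE) and 0.11 ± 0.21.

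No member passed the threshold, an adjusted p of 0.05 in edgeR's quasi-likelihood test with Benjamini-Hochberg adjustment over all genes tested, and neither did any other gene (0% of 15591). At an unadjusted p under 0.05, 2 members were higher in miR-99 KD, Aff3 and Phc1 (2 of 45, 4.44%, against 2.66% of all genes), and 2 were lower, Ash2l and Jmjd1c (4.44%, against 5.23% of all genes). With DESeq2, 1 member was called higher, Aff3, where 0.725% of all genes were. DESeq2 called 0 members lower, where 148 of the 15591 genes were called lower. Both miR-99 KD libraries lay above both Scr libraries in 4 members (8.89%, against 18.9% of all genes) and below them in 12 (26.7%, against 25.3%). The share lower without overlap was therefore near that of all genes, and the share higher was below it.

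Of the members, the log2 fold change of miR-99 KD over Scr was positive in 18 and negative in 27 (60% negative, against 51% of all genes). Their median was −0.09, beside −0.01 over all genes, and was 0.11 without miR-99 KD 2. The median size of the change, without its sign, was 0.21, beside 0.28 over all genes. In 26 of the 45 members the log2 fold change lay within 1 SE of 0, and in 35 it was under 0.5 in size. In bulk samples, fewer cells of a type and less RNA per cell cannot be told apart. In the plot of levels by library, the groups overlap in 29 of the 45 members.

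**Figure D1:**
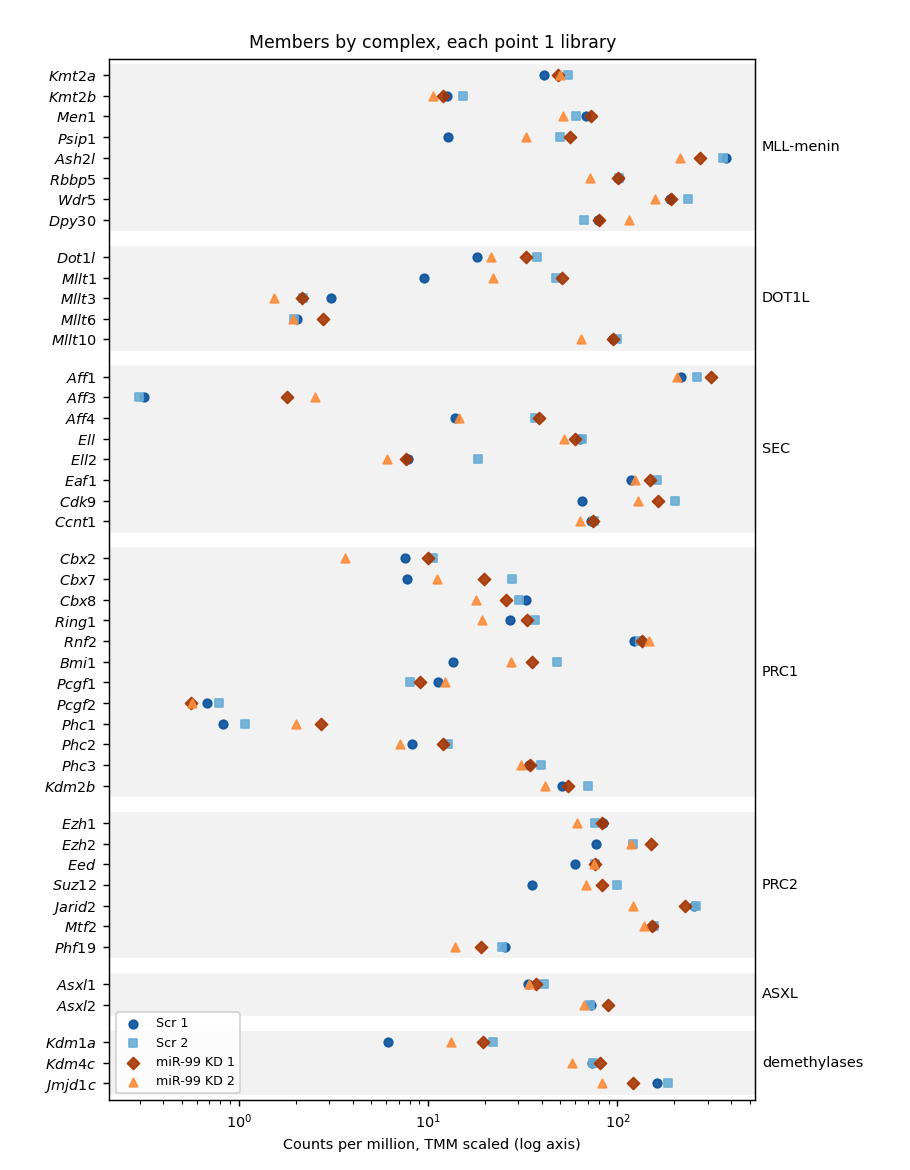
Level of each of the 45 members in each library, in TMM-scaled CPM on a log axis, grouped by complex (SEC, super elongation complex). Each point is 1 library. Aff3 and Phc1 are the members whose orange miR-99 KD points lie farthest above the blue Scr points, and Psip1, Mllt1, Cdk9, Bmi1, Suz12 and Kdm1a have a low Scr 1 point.

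**Figure D2:**
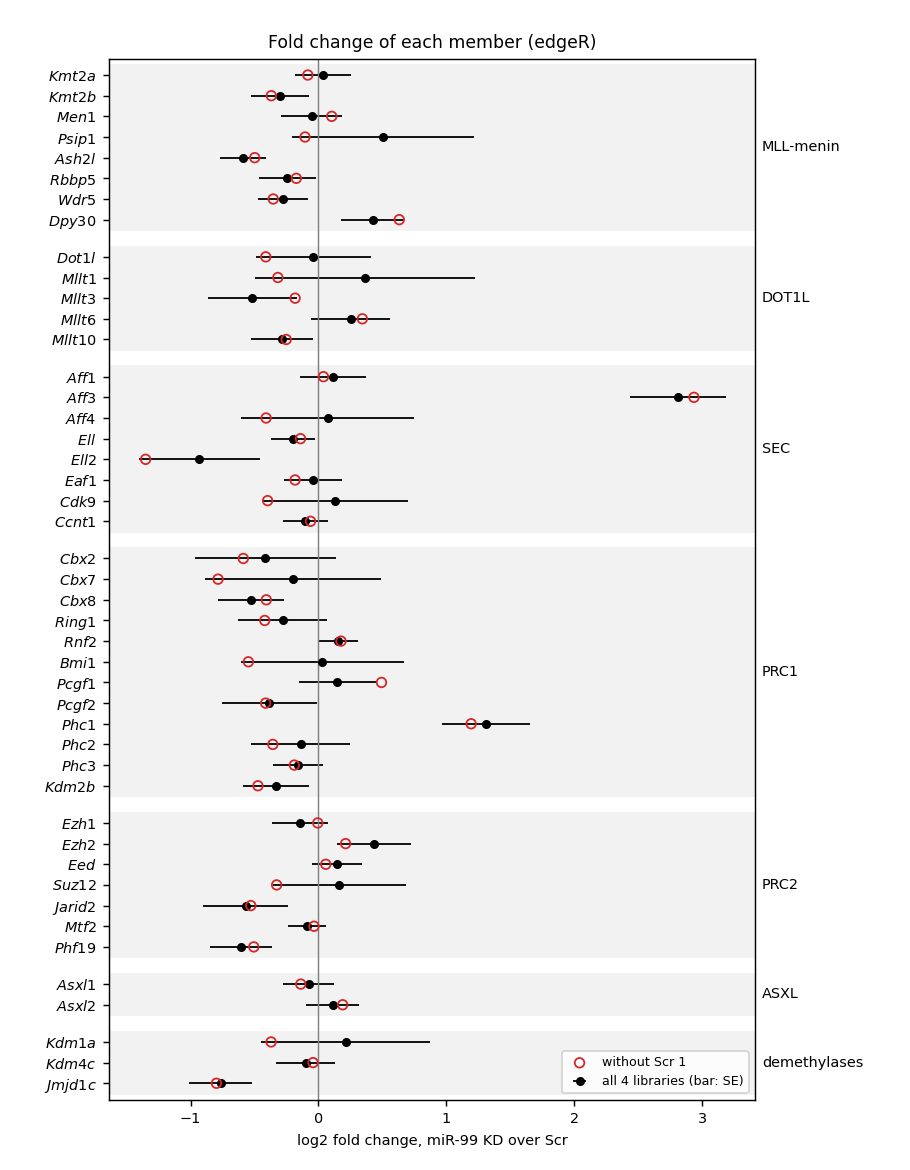
Log2 fold change of miR-99 KD over Scr for each member from edgeR, with all 4 libraries (black, bar 1 SE) and without Scr 1 (red ring), by complex. Aff3 at 2.81 and Phc1 at 1.31 lie farthest to the right, and 27 of the 45 members lie left of 0.

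Among the MLL-menin genes, the core subunit Ash2l was lower in both miR-99 KD libraries, and the MLL gene itself was level between the groups. Log2 fold changes were positive in 3 of the 8 genes and negative in 5, and their median was −0.15, or 0.04 without miR-99 KD 2. Levels summed over the 8 genes were 880 and 943 CPM in the Scr pair and 835 and 703 CPM in the miR-99 KD pair. Ash2l was the largest single part of each sum, at 374 and 360 CPM in the Scr pair and 272 and 214 CPM in the miR-99 KD pair.

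Kmt2a, the methyltransferase that MLL-AF9 takes its first part from, had 40.7 and 54.5 CPM in the Scr pair and 48.3 and 49.5 CPM in the miR-99 KD pair. The miR-99 KD values lay between the Scr values, and the log2 fold change was 0.04 ± 0.22 (edgeR adjusted p 0.963). Counts per gene cannot tell Kmt2a from transcripts of the fusion, and whether the fusion construct carries mouse or human sequence is not stated.

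Men1, which encodes menin, had 68.3 and 60.3 CPM in the Scr pair and 72.3 and 51.6 CPM in the miR-99 KD pair, with overlapping groups and a log2 fold change of −0.05 ± 0.24. Psip1, which encodes the chromatin tether LEDGF, had 12.8 and 49.97 CPM in the Scr pair and 56.3 and 32.8 CPM in the miR-99 KD pair. Scr 1 was the low library for Psip1, 2.57 times under the next lowest. Its log2 fold change of 0.51 ± 0.71 became −0.10 without Scr 1.

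The core that all MLL-family enzymes share consists of Wdr5, Rbbp5, Ash2l and Dpy30. Ash2l, which stimulates the methyltransferase, had 374 and 360 CPM in the Scr pair and 272 and 214 CPM in the miR-99 KD pair. The groups did not overlap, and the means were 367 ± 9.88 and 243 ± 41.3 CPM (SD, n = 2 each). The log2 fold change of −0.59 ± 0.18 did not pass over all genes (edgeR adjusted p 0.586, DESeq2 0.639). Ash2l lies on chromosome 8, 25815996 to 25847694, of GRCm38. Wdr5, the scaffold of the core, had 190 and 235 CPM in the Scr pair and 192 and 158 CPM in the miR-99 KD pair, with overlap and a log2 fold change of −0.28 ± 0.20, or −0.07 without Scr 2. The other 3 genes, Kmt2b, Rbbp5 and Dpy30, had log2 fold changes from −0.30 to 0.42. Only Dpy30 of the 8 genes lay higher in both miR-99 KD libraries, and Kmt2b, Rbbp5 and Ash2l lay lower in both.

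Genes of the DOT1L complex showed no shared direction. Of 5 genes, 2 were positive and 3 negative, with a median of −0.04, which ranged from −0.32 without miR-99 KD 1 to 0.27 without Scr 2. Their summed level was 127 and 188 CPM in the Scr pair and 184 and 112 CPM in the miR-99 KD pair, so that each group held 1 high and 1 low library.

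Dot1l, the methyltransferase that marks the body of transcribed genes, had 18.1 and 37.7 CPM in the Scr pair and 32.8 and 21.4 CPM in the miR-99 KD pair. The miR-99 KD values again lay inside the Scr range, with a log2 fold change of −0.04 ± 0.45, which became −0.41 without Scr 1. Mllt3, which encodes AF9, was among the lowest members, at 3.09 and 2.19 CPM in the Scr pair and 2.15 and 1.54 CPM in the miR-99 KD pair. Both miR-99 KD values lay under both Scr values, Scr 2 and miR-99 KD 1 by little, and the log2 fold change was −0.52 ± 0.34 (edgeR adjusted p 0.728), or −0.18 without Scr 1 and −0.26 without miR-99 KD 2. As for Kmt2a, endogenous and fusion transcripts cannot be told apart in these counts. Mllt10, which encodes the DOT1L cofactor AF10, had 94.7 and 99.2 CPM in the Scr pair and 94.8 and 64.5 CPM in the miR-99 KD pair, where miR-99 KD 2 alone was low, and its log2 fold change of −0.28 ± 0.24 was −2.7e-04 without that library. Mllt1 and Mllt6 had log2 fold changes of 0.36 ± 0.86 and 0.25 ± 0.31.

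The super elongation complex held the member with the largest log2 fold change, Aff3, a low-level paralog of its scaffold genes. Aff3 had 13 and 12 counts in the Scr pair and 74 and 107 in the miR-99 KD pair, which is 0.316 and 0.296 CPM against 1.79 and 2.54 CPM. The lower miR-99 KD library lay well above both Scr libraries, which were nearly equal. The means were 0.306 ± 0.0144 and 2.16 ± 0.528 CPM (SD, n = 2 each), a ratio of 7.07 and a log2 fold change of 2.81 ± 0.38. That change passed the threshold in DESeq2 (adjusted p 4.68e-04) and not in edgeR (adjusted p 0.356). Without Scr 1, edgeR called it too, with a log2 fold change of 2.94 and an adjusted p of 0.00931, where 0.993% of all genes were called higher. That fit rests on 1 Scr library, which is assumed to vary like the miR-99 KD pair. Aff3 lies on chromosome 1, 38177326 to 38664955, of GRCm38, and its exons overlap no other annotated gene. Over the libraries Aff3 rose from Scr 2 to Scr 1, miR-99 KD 1 and miR-99 KD 2, as the summed granulocyte markers did. Scr 1 and Scr 2 were nearly level for Aff3, at 0.316 and 0.296 CPM. For the markers they were further apart, at 3818 and 1627 CPM. The part of granulocyte maturation in this result was not tested.

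The other scaffold genes overlapped between the groups. Aff1, the scaffold with the highest level, had 215 and 263 CPM in the Scr pair and 311 and 207 CPM in the miR-99 KD pair, a log2 fold change of 0.11 ± 0.26. Aff4, the scaffold most studied in the complex, had 13.8 and 36.5 CPM in the Scr pair and 38.4 and 14.6 CPM in the miR-99 KD pair. Each group of Aff4 held 1 library near 14 CPM and 1 near 37 CPM, and the log2 fold change was 0.07 ± 0.68. Cdk9, the kinase that releases paused polymerase, had 64.7 and 201 CPM in the Scr pair and 164 and 128 CPM in the miR-99 KD pair. Scr 1 was again low, and the log2 fold change went from 0.13 ± 0.57 to −0.40 without it.

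Ell2, an elongation factor, had 7.85 and 18.3 CPM in the Scr pair and 7.62 and 6.09 CPM in the miR-99 KD pair. The groups did not overlap, but Scr 1 and miR-99 KD 1 were almost equal, and the log2 fold change of −0.93 ± 0.47 did not pass (edgeR adjusted p 0.681) and was −0.15 without Scr 2. Ell, Eaf1 and Ccnt1 had log2 fold changes from −0.20 to −0.04. Of the 8 genes, 4 were positive and 4 negative, with a median of 0.02, which ranged from −0.16 without Scr 1 to 0.28 without Scr 2. Summed levels were 556 and 822 CPM in the Scr pair and 805 and 597 CPM in the miR-99 KD pair, with Scr 1 and miR-99 KD 2 low.

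Most PRC1 genes had slightly lower means in miR-99 KD, and Phc1, which was higher, had the widest difference. Of 12 genes, 4 were positive and 8 negative, with a median of −0.18. Without miR-99 KD 2 that median was 0.11. Summed levels were 316 and 416 CPM in the Scr pair and 373 and 320 CPM in the miR-99 KD pair.

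Phc1, a polyhomeotic subunit that lets PRC1 assemble into chains, had 34 and 44 counts in the Scr pair and 113 and 85 in the miR-99 KD pair. In CPM these are 0.827 and 1.08 against 2.73 and 2.01, with no overlap and the higher value in miR-99 KD 1. The means were 0.955 ± 0.182 and 2.37 ± 0.508 CPM (SD, n = 2 each), a ratio of 2.48 and a log2 fold change of 1.31 ± 0.34. Phc1 did not pass over all genes (edgeR adjusted p 0.578, DESeq2 0.227). It lies on chromosome 6, 122317731 to 122340561, of GRCm38.

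Rnf2, the main ubiquitin ligase of PRC1, was close to constant at 122 and 131 CPM in the Scr pair and 135 and 146 CPM in the miR-99 KD pair. The groups did not overlap, but the log2 fold change was 0.16 ± 0.15. Bmi1, the subunit known for self-renewal of blood stem cells, had 13.5 and 48.1 CPM in the Scr pair and 35.5 and 27.3 CPM in the miR-99 KD pair. Its miR-99 KD values lay inside the Scr range, and the log2 fold change of 0.03 ± 0.64 became −0.55 without Scr 1.

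The chromobox proteins read the PRC2 mark. Cbx8, which also binds AF9, had 32.7 and 30.4 CPM in the Scr pair and 25.8 and 17.9 CPM in the miR-99 KD pair, with no overlap and a log2 fold change of −0.53 ± 0.26 (edgeR adjusted p 0.668), or −0.26 without miR-99 KD 2. Cbx7, the form linked to stem cells, had 7.73 and 27.8 CPM in the Scr pair and 19.8 and 11.2 CPM in the miR-99 KD pair. Cbx7 overlapped between the groups, with a log2 fold change of −0.20 ± 0.69, or −0.79 without Scr 1. Kdm2b, which brings a variant PRC1 to CpG islands, had 50.9 and 69.7 CPM in the Scr pair and 54.5 and 41.5 CPM in the miR-99 KD pair, a log2 fold change of −0.33 ± 0.26, or −0.04 without Scr 2. The remaining 6 genes, Cbx2, Ring1, Pcgf1, Pcgf2, Phc2 and Phc3, had log2 fold changes from −0.41 to 0.15. Pcgf2 alone of them was lower in both miR-99 KD libraries, where 25.3% of all genes were.

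In PRC2, the log2 fold changes of Ezh2, Eed and Suz12 were positive, and those of Ezh1 and the accessory genes Jarid2, Mtf2 and Phf19 were negative, with a median over the 7 genes of −0.09, or 0.09 without miR-99 KD 2. None of them passed, and the difference between these subsets was not tested.

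Ezh2, the catalytic subunit of dividing cells, had 77.2 and 121 CPM in the Scr pair and 150 and 118 CPM in the miR-99 KD pair. The groups overlapped between Scr 2 and miR-99 KD 2, and the log2 fold change was 0.44 ± 0.29 (edgeR adjusted p 0.723), or 0.21 without Scr 1 and 0.85 without Scr 2. Ezh1, its paralog of resting cells, had 83.7 and 75.9 CPM in the Scr pair and 83.04 and 61.5 CPM in the miR-99 KD pair, a log2 fold change of −0.14 ± 0.22. Eed, which reads the finished mark, had 59.9 and 76.2 CPM in the Scr pair and 76.0 and 74.9 CPM in the miR-99 KD pair, so that only Scr 1 was apart. Suz12, the scaffold of the core, had 35.4 and 99.1 CPM in the Scr pair and 82.4 and 68.3 CPM in the miR-99 KD pair. Like Cdk9 and Bmi1 it was low in Scr 1, and its log2 fold change of 0.16 ± 0.52 became −0.33 without that library.

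Jarid2, which guides PRC2 to its targets, had 254 and 261 CPM in the Scr pair and 226 and 121 CPM in the miR-99 KD pair. The Scr libraries were nearly equal, miR-99 KD 2 was far lower than miR-99 KD 1, and the log2 fold change was −0.57 ± 0.33 (edgeR adjusted p 0.702), or −0.15 without miR-99 KD 2. Phf19, a Polycomb-like accessory subunit, had 25.6 and 24.4 CPM in the Scr pair and 19.1 and 13.8 CPM in the miR-99 KD pair. Its groups did not overlap, and the log2 fold change was −0.60 ± 0.24 (edgeR adjusted p 0.651), or −0.36 without miR-99 KD 2. Mtf2, another Polycomb-like subunit, was also lower in both miR-99 KD libraries, by −0.09 ± 0.15 on the log2 scale.

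Asxl1, a Polycomb-associated gene often mutated in human myeloid disease, had 33.8 and 41.0 CPM in the Scr pair and 36.9 and 34.1 CPM in the miR-99 KD pair. The miR-99 KD values lay inside the Scr range, and the log2 fold change was −0.08 ± 0.20.

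Of the demethylase genes, Jmjd1c was lower in both miR-99 KD libraries. This JmjC-family gene, which MLL-AF9 cells are known to depend on, had 161 and 185 CPM in the Scr pair and 121 and 82.5 CPM in the miR-99 KD pair. Its means were 173 ± 16.9 and 102 ± 27.4 CPM (SD, n = 2 each), 1.70 times lower in miR-99 KD, with a log2 fold change of −0.77 ± 0.25. The change did not pass over all genes (edgeR adjusted p 0.605, DESeq2 0.495) and ranged from −1.01 without miR-99 KD 1 to −0.48 without miR-99 KD 2. Jmjd1c lies on chromosome 10, 67096125 to 67256326, of GRCm38. Kdm1a, which encodes the demethylase LSD1, had 6.13 and 22.1 CPM in the Scr pair and 19.5 and 13.2 CPM in the miR-99 KD pair. Scr 1 was 2.15 times under the next lowest library for Kdm1a, and the log2 fold change went from 0.21 ± 0.66 to −0.37 without it. Kdm4c had a log2 fold change of −0.10 ± 0.23.

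Members often shared the library in which they were highest or lowest. Of the 45 members, 25 were highest in Scr 2 (55.6%, against 26.8% of all genes), and 25 were lowest in miR-99 KD 2 (55.6%, against 33.6%). Summed over all members, levels were 2916 and 3578 CPM in the Scr pair and 3332 and 2583 CPM in the miR-99 KD pair, so that the groups overlapped. In 4 members Scr 1 was less than 0.5 times the lowest other library, Psip1, Mllt1, Bmi1 and Kdm1a (8.89%, against 5.34% of all genes).

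An order with Scr 1 lowest and miR-99 KD 2 next was held by 13 members (28.9%, against 12.5% of all genes). They were Psip1, Dot1l, Mllt1, Aff4, Eaf1, Cdk9, Cbx7, Bmi1, Ezh2, Eed, Suz12, Asxl1 and Kdm1a, and thus came from all 7 complexes. Mllt1, which encodes the AF9 paralog ENL, had the widest range of them, at 9.55 and 47.4 CPM in the Scr pair and 51.1 and 22.1 CPM in the miR-99 KD pair. This order was chosen after the values were seen. It was taken from the olfactory receptor counts, which were highest in Scr 1 and next in miR-99 KD 2, at 51.9 and 15.0 CPM. The match of the 13 members with those counts was thus fixed by the choice of order. The part of the olfactory receptor difference in these values was not tested. The median GC content of the longest transcript was 49.0% in the 13 and 50.8% in the other 32 members, with 50.1% over all genes. The transcripts of the 13 had a median length of 3594 bases, against 4202 in the other 32 members. The part of GC content and transcript length in this order was not tested.

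**Figure D3:**
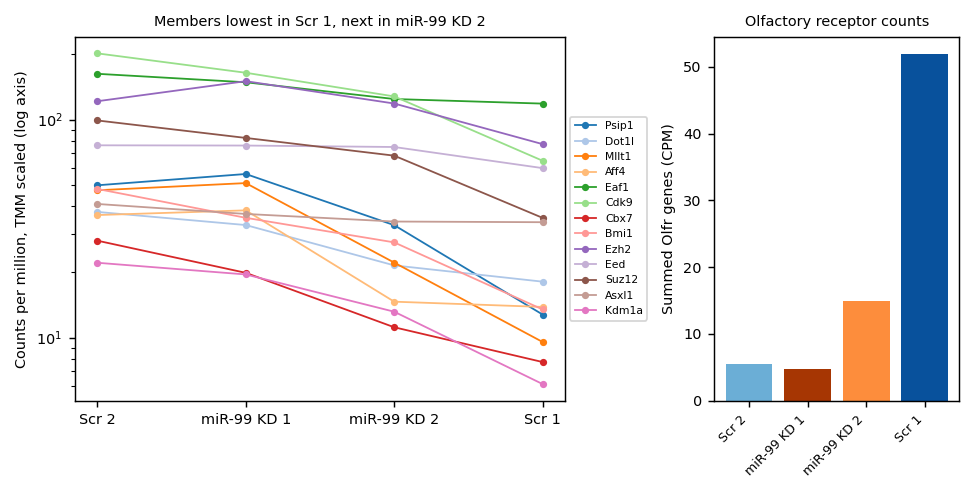
Left, TMM-scaled CPM (log axis) of the 13 members that were lowest in Scr 1 and next in miR-99 KD 2, with the libraries ordered by hand and each line 1 gene. Right, summed CPM of olfactory receptor genes in the same libraries, where Scr 1 reached 51.9 and miR-99 KD 2 reached 15.0. The order used to pick the 13 members was taken from these olfactory receptor counts.

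The sign of many members depended on which libraries were used. Without Scr 1, 34 of 45 members were negative instead of 27, with a median of −0.19 instead of −0.09, and 9 changed sign: Kmt2a, Men1, Psip1, Mllt1, Aff4, Cdk9, Bmi1, Suz12 and Kdm1a. Without miR-99 KD 2, only 15 were negative and the median was 0.11. Aff3, Phc1, Ash2l and Jmjd1c kept their sign in each of the fits without 1 library. These were picked by p in the same libraries and their groups did not overlap, so that outcome was largely fixed in advance. Of the 45 members, 21 kept their sign in every fit tried.

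Several members are paralogs that fill the same place in a complex, and their balance can be read within a library without scaling between libraries. Shares here are of counts per kilobase of exon, and 2 libraries against 2 cannot reach an exact two-sided p under 0.333, so no test is given. Compared per kilobase over the 45 members, the highest means were those of Dpy30 (74.2 CPM per kilobase) and Wdr5 (53.9), and the lowest those of Pcgf2 (0.184), Aff3 (0.185) and Mllt3 (0.187).

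In 7 of the pairs and triplets, 1 paralog held 65.1% or more of the level in every library. Aff1 held 95.5% and 91.0% of the Aff1, Aff3 and Aff4 level in the Scr pair and 91.3% and 93.7% in the miR-99 KD pair. Within that triplet Aff3 held 0.2% and 0.1% in the Scr pair and 0.7% and 1.6% in the miR-99 KD pair. Aff3 was thus a small part of the scaffold transcripts in every library. Mllt10 held 98.3% and 98.5% of Mllt10 and Mllt6 in the Scr pair and 97.7% in each miR-99 KD library, and Ell held 91.8% to 96.5% of Ell and Ell2. Mllt1 held 90.5% of Mllt1 and Mllt3 in Scr 1 and 97.8% to 98.6% in the other libraries, so that ENL transcripts exceeded AF9 transcripts in each of them. Bmi1 held 94.6% to 98.3% of Bmi1 and Pcgf2, Rnf2 held 73.8% to 85.6% of Rnf2 and Ring1, and Kmt2a held 65.1% and 67.1% of Kmt2a and Kmt2b in the Scr pair and 69.8% and 72.8% in the miR-99 KD pair.

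The shares were more even for Ezh2, the chromobox genes, the polyhomeotic genes and the ASXL genes. Ezh2 held 50.7% and 64.1% of Ezh2 and Ezh1 in the Scr pair and 66.8% and 68.2% in the miR-99 KD pair. The 2 groups did not overlap for Ezh2, but Scr 2 lay closer to both miR-99 KD libraries than to Scr 1. Phc1 held 4.8% of the polyhomeotic level in both Scr libraries and 12.3% and 12.1% in miR-99 KD, where the libraries of a group were nearly equal. Phc3 led this triplet with 47.3% to 59.5%. Cbx8 held the highest share of the chromobox genes, with 75.1% and 54.9% in the Scr pair and 56.6% and 65.5% in the miR-99 KD pair, and the share of Cbx7 was lowest in Scr 1, at 10.04% against 23.1% to 28.5%. Asxl1 held 47.1% to 55.2% of the ASXL level. With coding length in place of exon length its mean share was 30.7% instead of 51.1%, so the order of Asxl1 and Asxl2 depends on the length used. Coding length also gave mean shares of 49.2% for Cbx8, 41.2% for Cbx7 and 72.8% for Phc3. By coding length Phc3 held 67.8% to 76.7%, so how even the polyhomeotic shares were depends on the length used. Phc1 then held 1.81% and 1.92% in the Scr pair and 5.19% and 4.76% in the miR-99 KD pair. On that length Cbx7 exceeded Cbx8 in Scr 2 (51.6% against 39.0%) and miR-99 KD 1 (46.6% against 42.1%), so their order depends on the length too.

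**Figure D4:**
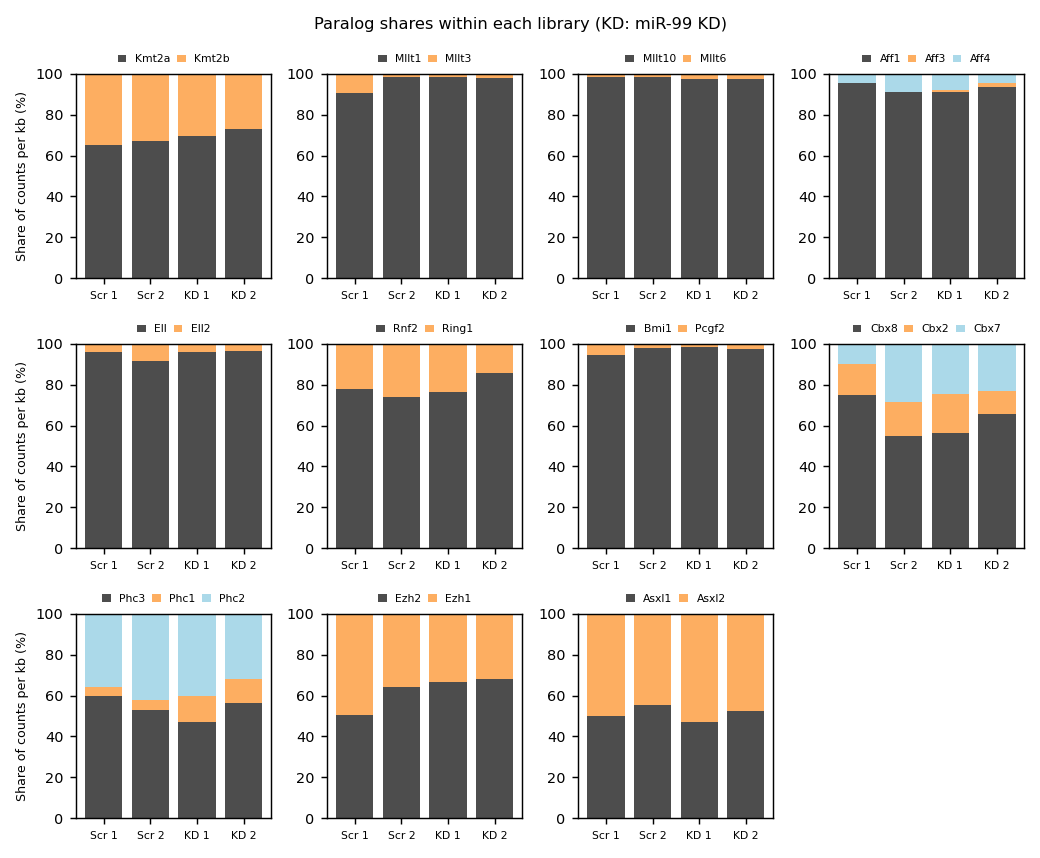
Share of counts per kilobase of exon, in percent, held by each paralog within its group, with 1 stacked bar per library. The Phc1 share is about 5% in both Scr bars and 12% in both miR-99 KD bars, and the Ezh2 share is 50.7% in Scr 1 and 64.1% to 68.2% in the others.

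Other genes of the same complexes were read from a separate list. Of 66 listed, 65 were tested, with 32 positive, 33 negative and a median of −0.03. DESeq2 called 0 of them, beside 261 of the 15591 genes tested. At an unadjusted p under 0.05 in edgeR, 0 were higher (against 2.66% of all genes) and 1 was lower (against 5.23%). The gene was Usp7, a deubiquitinase of a variant PRC1, with 100 and 108 CPM in the Scr pair and 61.3 and 45.1 CPM in the miR-99 KD pair. Its log2 fold change was −0.97 ± 0.22 (edgeR adjusted p 0.505, DESeq2 0.0829).

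Known targets of MLL-AF9 and Polycomb were read from a further list, and whether their levels follow these complexes was not tested. Of 22 listed, 20 were tested, with 6 positive, 14 negative and a median of −0.30, which was −0.07 without Scr 2 and −0.08 without miR-99 KD 2. Over all genes 51% were negative and the median was −0.01. The pooled median mixes targets of activating and repressive complexes, so it has no single meaning. The median was −0.21 over 15 MLL-AF9 targets, or 0.06 without Scr 2 and −0.51 without Scr 1. Over 5 Polycomb targets it was −0.32, or −0.06 without miR-99 KD 2. Hoxa9, the homeobox gene that MLL-AF9 keeps on, had 281 and 362 CPM in the Scr pair and 174 and 166 CPM in the miR-99 KD pair (−0.92 ± 0.19 as log2 fold change, edgeR adjusted p 0.466). Meis1, its cofactor, had 336 and 329 CPM in the Scr pair and 238 and 197 CPM in the miR-99 KD pair (−0.61 ± 0.16, adjusted p 0.580). Both lay lower in both miR-99 KD libraries, without passing over all genes. Eya1, another MLL-AF9 target, lay the other way, at 116 and 140 CPM in the Scr pair and 217 and 171 CPM in the miR-99 KD pair (0.60 ± 0.21, adjusted p 0.621). Cdkn1c, a Polycomb target and cell cycle inhibitor, had 4.33 and 6.97 CPM in the Scr pair and 9.24 and 15.1 CPM in the miR-99 KD pair (1.11 ± 0.40, adjusted p 0.621). Cdkn2a, the Polycomb target that limits self-renewal, was near 1 CPM in 3 libraries and 0.379 CPM in miR-99 KD 2.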

How the data were processed

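RNA was extracted with Trizol LS and amplified with SMARTer, per the labels' protocols. Each deposited table holds unscaled read counts for Ensembl genes. The authors used DESeq2, HTSeq, Picard and STAR and the build mm9, per the submitters' processing notes. Versions, annotation and strand setting were not stated. Entries that name no gene were 43.7% to 49.7% per library and stayed out of all sums.

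The members and lists were chosen with earlier results of these data known. Counts were tested with edgeR 4.0.16 (R 4.3.3, quasi-likelihood test, two-sided, TMM factors of 0.969 to 1.07, default filter with a minimum count of 10, Benjamini-Hochberg over 15591 genes). The fit had 2 residual degrees of freedom and a biological coefficient of variation of 0.320. CPM values are TMM scaled. The SE of an edgeR log2 fold change is its size over the square root of the F statistic of the quasi-likelihood test. Alternatives were DESeq2 1.42.0, limma-voom 3.58.1, other factors, filters and blocks, and each library left out.

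Named genes were members with an unadjusted p under 0.05, members without overlap and a log2 fold change of at least 0.5 in size, and a fixed core list. Other members were given by range. Of 45232 identifiers 44585 had a symbol. Coordinates, exon lengths and UTRs are those of GENCODE M21 on GRCm38, matched by identifier. Exons of Kmt2a, Psip1, Mllt10, Ell2, Eaf1, Ccnt1, Cbx7, Rnf2, Kdm2b, Ezh2, Eed, Suz12, Mtf2, Asxl1 and Asxl2 overlap a gene on the opposite strand. As the strand setting was not stated, reads of the overlapping genes may not have been told apart. Exons of Ell2, Cdk9 and Kdm2b overlap annotated genes on the same strand. Reads are not independent molecules, since no molecular identifiers are named.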

Additional observations from a re-analysis of the deposited data

How the results depend on the processing

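With 2 libraries per group, edgeR called 0 of 15591 genes, with 414 higher and 816 lower before adjustment at 0.05, while upper-quartile factors called 23, no filter on low counts 9, DESeq2 261 and limma-voom 0. Of the members, DESeq2 called 1, Aff3. Same-numbered libraries did not deviate together (correlation −0.428). With 2 libraries per group this cannot tell whether the numbers pair the mice, which is not stated. The replicate block called 0 genes, and left 2 members higher and 0 lower before adjustment, beside 219 and 431 of the 15591 genes. The crossed pairing as a block, chosen after seeing the data, called 28. Leaving out 1 library gave 0 to 294 calls over all genes and 0 to 1 among the members, the highest without Scr 1 in both. Complex medians then ranged from −0.29 to 0.036 (MLL-menin), −0.41 to 0.11 (PRC1), −0.10 to 0.090 (PRC2), −0.063 to 0.17 (ASXL), −0.32 to 0.27 (DOT1L), −0.16 to 0.28 (super elongation) and −0.37 to 0.16 (demethylases), each positive without miR-99 KD 2. The median of all genes shifted from −0.01 to −0.20 without the filter, which added genes of few counts.

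Signs turned near 0 in a few fits. Men1 was 0.0030 and Eaf1 0.012 without the filter. Dot1l was 0.0031 with DESeq2 size factors, 0.0032 with DESeq2, 0.010 without the filter, 0.023 with the replicate block and 0.024 with limma-voom. Cbx7 was 0.017 with the replicate block and 0.020 with limma-voom. With 1 library left out, signs turned in 24 members. The log2 fold change then ranged from −0.083 to 0.31 for Kmt2a, −0.26 to 0.20 for Men1, −0.10 to 1.85 for Psip1, −0.45 to 0.019 for Rbbp5, −0.41 to 0.63 for Dot1l, −0.32 to 1.98 for Mllt1, −0.15 to 0.41 for Aff1 and −0.73 to 0.98 for Aff4. It ranged from −0.18 to 0.25 for Eaf1, −0.40 to 1.22 for Cdk9, −0.17 to 0.043 for Ccnt1, −1.26 to 0.17 for Cbx2, −0.79 to 1.05 for Cbx7, −0.66 to 0.089 for Ring1, −0.55 to 1.27 for Bmi1 and −0.055 to 0.49 for Pcgf1. It ranged from −0.51 to 0.25 for Phc2, −0.32 to 0.090 for Ezh1, −0.33 to 1.14 for Suz12, −0.10 to 0.0028 for Mtf2, −0.14 to 0.12 for Asxl1, −0.050 to 0.33 for Asxl2, −0.37 to 1.46 for Kdm1a and −0.31 to 0.16 for Kdm4c. The cause was not tested. Depth limits mainly Aff3, Phc1 and Pcgf2, which held fewer than 50 counts in each Scr library.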
